A study of Homo sapiens with 197 samples.

Results

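ALAS1 was 1 of 75 rows counted in each lane of a Nanostring screen in which IMR90 cells, a non-transformed human lung fibroblast line, were challenged with activated kinases. Its values are those of the row of that name in the count file of each lane, with no threshold applied. Each kinase well was infected with a retrovirus encoding 1 kinase fused to a myristoylation signal, which tethers the protein to membranes, and RNA was taken 4 days later. The IMR90 controls are labelled as empty vector but the study's text elsewhere mentions cells without infection, and the word controls is used here for these wells. The same label is carried by SW39, a transformed derivative of IMR90 cells, and the remaining lanes held a reference RNA mixed from 10 human cancer cell lines.

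The values come from 43 wells of 6 groups of related kinases, 140 wells of other kinases, 2 control wells, 2 SW39 wells and 6 lanes of the reference RNA. Every kinase was measured in 1 well, so a kinase on its own has no replicate error. The myristoylation signal can place a kinase away from its usual compartment, and the files do not report kinase activity. The HK1 lane was left out because it held 92 counts over all 57 endogenous rows, 1 of them for ALAS1. Left out as well were 3 second lanes, named for a control, PIK3CG and PTK2, whose titles carry the sample number of another lane. The FASTK lane is marked as a second lane too, but its number is carried by no other lane and it was kept. A kinase lane held between 29629 and 340763 counts in total (median 159350). The panel held no lineage markers with which to check the cell lines.

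ALAS1 encodes 5-aminolevulinate synthase, the mitochondrial enzyme that joins glycine and succinyl-CoA in the first and rate-limiting step of heme synthesis. It is the form found in nearly all cells, whereas ALAS2 serves the red cell lineage. In liver its transcription is raised on fasting through the coactivator PGC-1alpha and FOXO1, is lowered by insulin through AKT, and is repressed by heme itself. Cyclic AMP and its kinase PKA act in the same fasting response, and AMPK senses low cellular energy. These links make AMPK, PKA, the AKT pathway and the metabolic kinases natural groups in which to read the ALAS1 count.

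The gene lies on chromosome 3 at positions 52198083 to 52214327 of GRCh38.p14, on the plus strand. The letters upstream of its annotated start are shown because motifs bound by effectors of these pathways are defined by sequence. In the RefSeq promoter table, the 250 bases before the start, at chr3:52197833-52198082 on the plus strand, read as follows, with GC boxes (GGGCGG on either strand) in capitals.
ALAS1 upstream: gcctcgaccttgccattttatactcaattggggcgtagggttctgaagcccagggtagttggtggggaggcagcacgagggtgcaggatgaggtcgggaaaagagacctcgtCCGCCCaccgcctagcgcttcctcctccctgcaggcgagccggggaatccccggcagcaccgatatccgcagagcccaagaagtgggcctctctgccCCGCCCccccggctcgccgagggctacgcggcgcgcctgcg

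A palindrome of the nuclear respiratory factor NRF1 begins 22 bases into the transcribed part, and is shown in capitals within 30 bases, at chr3:52198094-52198123 on the plus strand.
ALAS1 NRF1 match: agcgcccaagGCGCATGCGCagcggtcact

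The window of 300 bases from 250 before to 50 after the start was searched on both strands. The NRF1 palindrome of 10 letters was found once in ALAS1 and in 1.23% of 34796 distinct promoter windows of that length. A form longer by 1 letter, which overlaps the same match, was present in 0.75% of the windows. The GC box had 2 matches in ALAS1 and was present in 44.9% of the windows. The cyclic AMP response element TGACGTCA, its overlapping shorter site TGACG and the FOXO motif GTAAACA had 0 matches in the ALAS1 window, against 1.84%, 24.5% and 3.42% of all windows. A match is a string of letters and does not show binding.

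In this assay, colour-coded probes are hybridized to RNA and counted without amplification. Each lane was scaled by its 6 positive-control probes and then by 3 housekeeping rows (PGK1, TBP and TUBB2A, by their geometric mean), which gives the normalized count used here unless another scaling is named. ALAS1 was well detected. Its raw count in kinase wells lay between 97 and 862 (median 488), and the lowest ratio of this count to the background of its lane was 10.5, with background set at 2 SD above the mean of its negative controls. The same level was exceeded in the 2 control wells, the 2 SW39 wells and the 6 reference lanes. Of 14 genes of heme synthesis and its control that were listed, ALAS1 was the only one with a row in the files, so the rest of the pathway was not measured.

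In normalized counts, ALAS1 was 457 and 542 in the control wells, with raw counts of 457 and 518. The kinase wells ran from 335 in FGFR1 through a median of 494 to 777 in MAP3K8, and the middle part of the distribution, from the lower to the upper quartile, lay between 452 and 550.2. The distance from the lowest to the highest kinase well was 2.32-fold. The controls thus sat within the central part of the kinase wells, with 49 kinase wells above both and 53 below both. ALAS1 was 526 and 546 in the SW39 wells, of which the first lay between the controls and the second just above them. The 6 reference lanes gave 387, 391, 332, 362, 391 and 366, all below both controls.

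**Figure D1:**
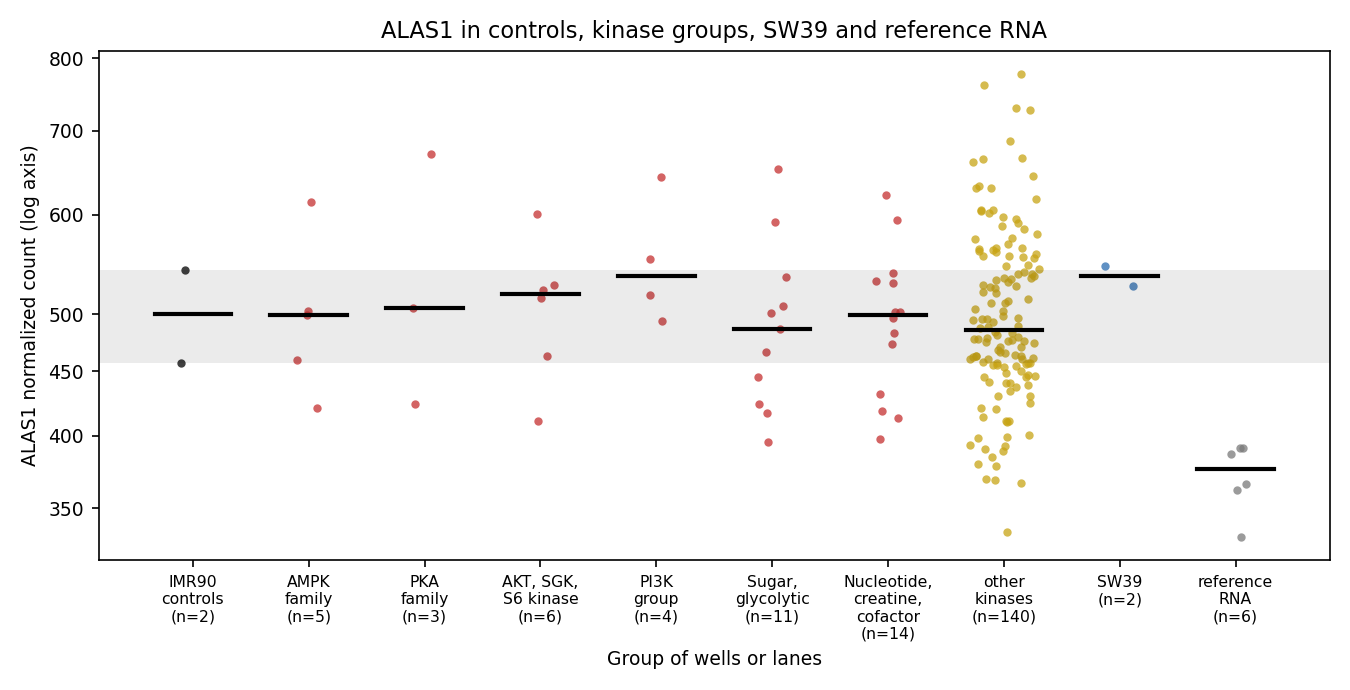
Each point is 1 well or lane, the vertical axis is the ALAS1 normalized count on a log axis, black lines are medians, and the grey band spans the 2 IMR90 controls, from 457 to 542. 5 of the 6 groups of related kinases reach above and below the band, the PI3K group lies within and above it, the other kinase wells range from 335 to 777, and the 6 reference RNA lanes lie between 332 and 391.

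The average ALAS1 level of the kinase wells was close to that of the controls. In edgeR's quasi-likelihood test ALAS1 in kinase wells differed from the 2 controls by 0.012 on the log2 scale (SE 0.16), a ratio of 1.01 with a 95% interval from 0.812 to 1.25, and the adjusted p over the 57 endogenous rows was 0.939. Of these rows, 1.75% passed an adjusted p of 0.05 in the same comparison. For ALAS1 alone, an exact two-sided permutation test over the 17020 choices of 2 wells gave p = 0.999 for a difference in mean log2 of 0.00026. The controls differed from each other by more than this, and the interval covers ratios on both sides of 1. The control wells have sample numbers 1 and 13, and both tests set them against kinase wells of all sample numbers. ALAS1 varied between ranges of sample numbers, as given below, so neither p measures a difference within a range.

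The kinase wells varied more than repeats of a single RNA. The SD of log2 normalized ALAS1 was 0.22 over kinase wells and 0.092 over the 6 reference lanes, where counting alone would give about 0.060. In kinase wells counting alone would give 0.070. Much of this spread lay between ranges of sample numbers. When the wells were divided into blocks of 12 consecutive sample numbers, 55.8% of the variance of ALAS1 lay between the 17 blocks, and the SD within blocks was 0.16. Among the 57 endogenous rows only the row named UHRF1 had a larger share, 68.01%. The median was 31.4% over these rows and 43.1% over the 16 that exceeded background. What the blocks stand for is not stated in the labels, and each kinase lies in 1 block, so block and kinase cannot be told apart for a whole block.

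The block medians of ALAS1 ranged from 401 in block 15 to 657 in block 11, counted from the lowest sample number. In the latter, 11 of 12 wells were above the median of all kinase wells, and in the former none of 11 was. The high block supplied 7 of the 10 highest kinase wells and 10 of the 20 highest. Its ALAS1 was also high after scaling by positive controls only, with a median of 598 against 472 over all kinase wells. The low block was different. On the positive-control scale its ALAS1 median was 482, close to that of all kinase wells, while the geometric mean of its 3 housekeeping rows was 2995 against 2463 in the high block. The first block held a control of 457 beside a kinase median of 462, with 6 of 10 kinase wells above the control. The next block held the control of 542 beside a kinase median of 470.3, with 1 of 9 kinase wells above it.

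**Figure D2:**
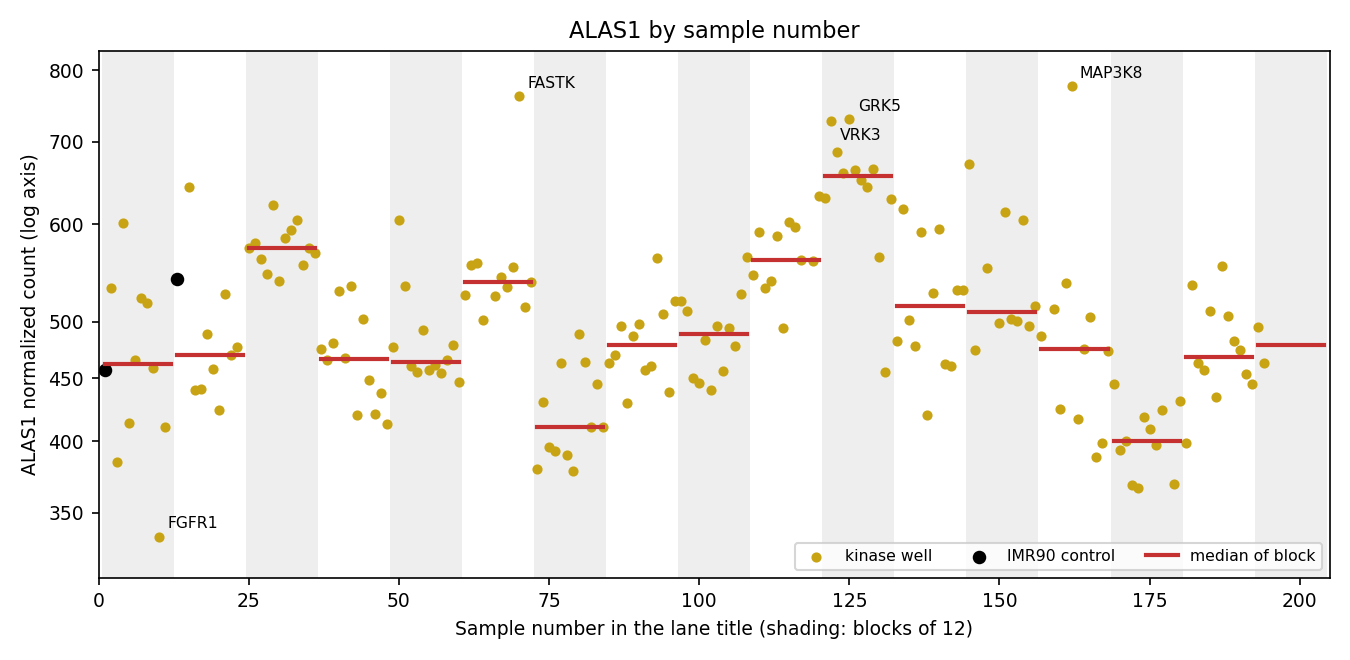
The horizontal axis is the sample number in the lane title, with blocks of 12 shaded in turn, and the vertical axis is the ALAS1 normalized count on a log axis. Red lines are the medians of the kinase wells of each block, which range from 401 to 657; MAP3K8, FASTK (a second lane by its title) and FGFR1 stand away from their own blocks, whereas GRK5 and VRK3 lie in the highest block.

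Individual wells were ranked by Z-score, the distance from the mean log2 value in SDs over all kinase and control wells used. A Z-score of 2.5 corresponded to 732 normalized counts and one of -2.5 to 338. Above it lay 2 kinase wells, MAP3K8 and FASTK, and below it lay 1, FGFR1. None passed 3.5 in either direction. Over all 57 endogenous rows, 0.364% of pairs of a row and a kinase well exceeded 2.5 and 0.853% lay below -2.5.

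MAP3K8, a kinase that activates the MEK and ERK pathway downstream of inflammatory receptors, gave the highest ALAS1 level. Its raw count was 582 and its normalized count 777, with a Poisson interval from 715 to 843 that covers counting error only. This was 1.57 times the median of kinase wells, at a Z-score of 2.88. In its own block the level was 1.63 times the median, and the next well stood at 538. After centring on block medians its Z-score was 4.59, the highest of all kinase wells. Scaled by positive controls alone, ALAS1 was 629.5, which ranked 13, and 1.504 times its block median. Of the rows used for scaling, TUBB2A was 0.708 times its block median in this well, while PGK1 and TBP were at 1.02 and 0.979 times theirs. After housekeeping scaling the related MAP3K6 gave 411, MAP3K14 gave 393, and MAP3K7, the kinase TAK1, gave 414, all below both controls. With positive controls alone MAP3K6 gave 475, MAP3K14 gave 613 and MAP3K7 gave 453, all above the 355 and 422 of the controls. The kinase wells as a whole were also higher than the controls on that scale, with a median of 472. MAP3K8 stayed the highest of these MAP3K wells, and MAP3K14 ranked 20, not far from it.

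FASTK, first described as a kinase activated by Fas signaling and related to proteins that act on mitochondrial RNA, ranked next. Its raw count was 760 and its normalized count 762, with a Poisson interval from 709 to 818 and a Z-score of 2.76. The level was 1.42 times its block median, and the next well of the block stood at 558. It was high under both scalings, since with positive controls only it was 764 and ranked 3, or 1.73 times its block median. All 3 housekeeping rows were above their block medians in this well, PGK1 at 1.32, TBP at 1.08 and TUBB2A at 1.23 times, and ALAS1 exceeded each of these ratios. FASTK was a second lane by its title, whereas the other wells of its block were first lanes. In the 3 second lanes left out, ALAS1 was 1.198, 1.28 and 1.14 times the first lane of the same number after housekeeping scaling, and 1.33, 1.44 and 1.36 times with positive controls alone. The part of the lane in the FASTK level was not tested. Without FASTK in the mean and SD, 3 wells exceeded 2.5, namely MAP3K8, GRK5 and VRK3, and FGFR1 stayed below -2.5.

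The next 3 wells all came from the high block. GRK5, which phosphorylates activated G-protein-coupled receptors, gave 730.1. VRK3, a pseudokinase of the vaccinia-related family, gave 728. PI4K2B, a phosphatidylinositol 4-kinase of membranes, gave 687. Their Z-scores of 2.48, 2.46 and 2.09 fell to 0.92, 0.89 and 0.34 on centring by block, so none of the 3 stood out from its neighbours.

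FGFR1, the receptor of fibroblast growth factors, gave the lowest level. Its raw count of 477 was close to the median raw count of kinase wells, yet its normalized count was 335, with a Poisson interval from 305 to 366 and a Z-score of -2.57. The level was 0.724 times its block median, and the next lowest well of the block, PLK1, stood at 385. On the positive-control scale ALAS1 was 384, or 0.846 times its block median, while PGK1 was 1.30 times, TUBB2A 1.25 times and B2M 2.23 times theirs, and TBP was 1.04 times. Centring by block moved its Z-score to -3.18.

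The other low wells were NTRK3, the neurotrophin-3 receptor, at 367, TNK2, a tyrosine kinase downstream of Cdc42, at 369, PLK4, which drives centriole duplication, at 369, and MAPK13, the delta form of p38, at 378. The first 3 came from the low block and the last from a block with a median of 411. On the positive-control scale NTRK3 was 578, above the median of 472 over all kinase wells, while PGK1 stood at 1.56, TUBB2A at 1.39 and TBP at 1.28 times their block medians. On centring by block the Z-scores of these 4 wells lay between -0.94 and -0.87.

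Centring on blocks also brought up wells that the plain ranking did not show. Beyond 2.5 there were then 4 wells, MAP3K8, FASTK, PIK3CG and PRKACG, and below -2.5 there were 2, FGFR1 and MAST1, where the shares over all rows were 0.7% and 1.51%. Beyond 3.5 lay MAP3K8 and as far below lay MAST1. MAST1, a microtubule-associated kinase, gave 455, which was within the bulk of all wells but 0.693 times the median of the high block, and its ALAS1 was also 0.592 times the block median with positive controls only.

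The groups of related kinases were compared with all other kinase wells in edgeR, with p adjusted over 57 rows and 6 groups together. Wells of different kinases stand in for replicates here, and the PKA and PI3K groups pool catalytic with regulatory subunits. A group's difference is thus a mean over the wells named, and not a measure of the activity of its pathway. In none of the 6 comparisons did any endogenous row pass an adjusted p of 0.05, a share of 0%. At an unadjusted p under 0.05 there were 8 rows for the AMPK family, 1 for the AKT group, 3 for the sugar kinases and 0 for the other groups, and ALAS1 was not among them. Its adjusted p was 0.993 in all 6.

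The AMPK family was represented by PRKAA1, a catalytic subunit, PRKAG2, a nucleotide-sensing subunit, and the related kinases NUAK2, SNF1LK and MELK. ALAS1 was 459 with PRKAA1, 499 with PRKAG2, 503 with SNF1LK, 420.5 with MELK and 614 with NUAK2. NUAK2 was thus above both controls and MELK below both, while the 2 subunits of AMPK itself lay between the controls. The log2 difference of the family from the other kinase wells was -0.014 (SE 0.10, n = 5), with a ratio between 0.860 and 1.14 at the 95% level.

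In the PKA family the catalytic subunits lay far apart. ALAS1 was 424 with PRKACB and 671 with PRKACG, and 506 with PRKAR2A, a regulatory subunit. PRKACG was the well of rank 6, at 1.32 times its block median and 1.23 times with positive controls only. The log2 difference of the family was 0.082 (SE 0.13, n = 3), with a ratio between 0.884 and 1.27. Without PRKACG it was -0.12. With blocks as a term and all 3 wells it was 0.11 (SE 0.097, adjusted p = 0.995).

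For the AKT, SGK and S6 kinase group, ALAS1 was 601 with AKT1, 527 with SGK, 523 with RPS6KB1 and 463 with RPS6KB2, the S6 kinases, 515 with MAPKAP1, a subunit of the mTORC2 complex, and 411 with PDPK1, which phosphorylates AKT. AKT1 was above both controls and PDPK1 below both, and 4 of the 6 wells exceeded their block medians. The log2 difference was 0.0086 (SE 0.095, n = 6), with a ratio between 0.884 and 1.14. With blocks as a term it was 0.11 (SE 0.074, adjusted p = 0.995). The well labelled PDK1, a symbol used for more than one kinase and therefore put in no group, gave 477.

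All 4 wells of the PI3K group were at or above the median of kinase wells, and 3 of the 4 exceeded their block medians. PIK3R3 was itself the median well, and was the lowest of the 11 wells of its block. ALAS1 was 643 with PIK3CG and 518 with PIK3CB, the catalytic subunits, and 494 with PIK3R3 and 554 with PIK3R5, the regulatory subunits. This group had the highest difference of the 6, a log2 value of 0.13 (SE 0.11, n = 4, adjusted p = 0.993), with a ratio between 0.939 and 1.28. With blocks as a term it was 0.15 (SE 0.084, adjusted p = 0.995). The second lane named PIK3CG, at 493, carries the sample number of PLK1. Over 17 rows with many counts its root mean square log2 difference was 0.16 from the PLK1 lane and 0.48 from the PIK3CG lane. When it was summed with the lane used, the difference of the group fell to 0.078, beside 0.079 for the PKA family. Which kinase it held cannot be told from its label, so the sum need not hold PIK3CG alone. PIK3CG had a Z-score of 1.66, and of 2.89 after centring by block, where it stood at 1.37 times the median.

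The sugar and glycolytic kinases spread on both sides of the controls. Among 11 wells ALAS1 ranged from 396 with PKM2, a pyruvate kinase, through a median of 487 to 652 with PFKM, the muscle phosphofructokinase. HK2, a hexokinase, gave 592, whereas PFKL, the liver phosphofructokinase, gave 424 and GK, a glycerol kinase, gave 417. Above both controls were 2 wells and below both 4. The high value of PFKM lay in the high block, where it was at the block's median. The log2 difference was -0.031 (SE 0.072), with a ratio between 0.888 and 1.08.

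Among the 14 nucleotide, creatine and cofactor kinases ALAS1 ranged from 397 with NME7 through a median of 499 to 623 with UCK2, a uridine-cytidine kinase. TK1, a thymidine kinase, gave 594. PDXK, which makes pyridoxal phosphate, the cofactor of 5-aminolevulinate synthase, gave 539.5, just below the higher control. The mitochondrial creatine kinases CKMT1A and CKMT2 gave 502 and 432. Again 2 wells were above both controls and 4 below both. The log2 difference was -0.023 (SE 0.064), with a ratio between 0.902 and 1.07, the narrowest interval of the 6 groups. CAMKK1, which can phosphorylate AMPK, gave 470.3 and was in no group.

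The order of the wells depended strongly on the scaling. With positive controls only, which leaves differences in the amount of RNA in place, ALAS1 in kinase wells ranged from 253 with CAMK2B to 921 with AAK1, with a median of 472. Across all kinase wells the values under both scalings, which share the ALAS1 count, had a Pearson r of 0.57 and a Spearman rho of 0.55. Of the 5 highest wells 2 were the same, FASTK and VRK3, and of the 5 lowest none was. AAK1, a kinase of clathrin adaptors, stood at 665 and rank 7 after housekeeping scaling, and CAMK2B, a calcium/calmodulin-dependent kinase, stood at 458. The share of variance between blocks was 29.97% with positive controls only, against 43.5% with TBP alone, 51.5% with PGK1 alone and 59.1% with TUBB2A alone.

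**Figure D3:**
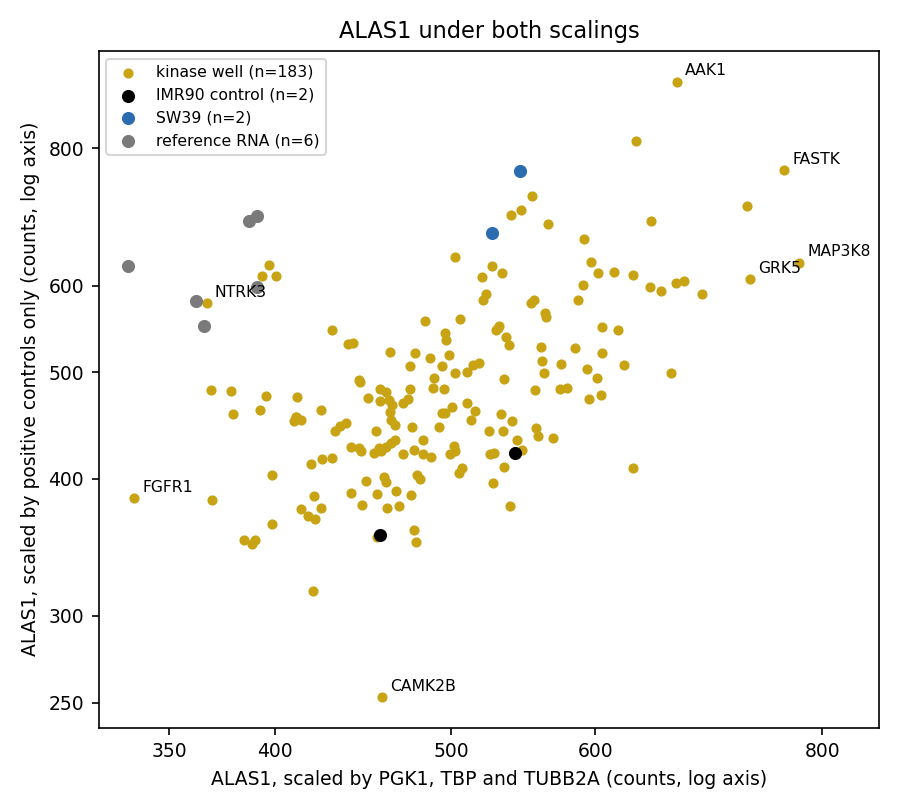
Each point is 1 well or lane, with the ALAS1 count scaled by PGK1, TBP and TUBB2A on the horizontal axis and by positive controls only on the vertical axis, both log axes. FASTK is high on both axes, FGFR1 is the lowest kinase well on the horizontal axis only, and the reference RNA lanes lie to the left at 332 to 391 but high at 551 to 694.

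Scaling by positive controls only also raised the kinase wells as a group relative to the controls, to a mean ratio of 1.24. In edgeR the log2 difference was 0.33 (SE 0.20, adjusted p = 0.175), and the exact two-sided permutation test gave p = 0.104. The housekeeping rows moved by a like amount, with kinase wells at 1.23 times the controls for PGK1, 1.23 times for TBP, 1.26 times for TUBB2A and 1.34 times for B2M. The amount of RNA per lane and a change of all these genes together cannot be told apart, nor can fewer cells in a well and less RNA per cell.

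In SW39 the difference of ALAS1 from the controls changed sign with the row used for scaling. The normalized counts of 526 and 546 were 1.08 times the controls on average, and the log2 difference in edgeR was 0.10 (SE 0.22, adjusted p = 0.980), where 8.77% of the endogenous rows were called. Scaled by positive controls only, the SW39 wells stood at 670.5 and 763 against 355 and 422 in the controls. The groups did not overlap, but with so few wells in each group this can readily occur by chance. The log2 difference was 0.88 (SE 0.28, adjusted p = 0.0104), where 15.8% of the rows were called. The SE and p of the SW39 fits in this paragraph rest on a spread shared with the kinase wells. That spread includes differences between kinases and between blocks. A fit of the SW39 and control wells alone was run only with PGK1, TBP and TUBB2A together. With TUBB2A alone the difference was 1.02 (SE 0.29, adjusted p = 0.00377, 22.8% called). With TBP alone it had the other sign, -0.51 (SE 0.17, adjusted p = 0.0278, 15.8% called), and with PGK1 alone it was -0.21 (SE 0.28, adjusted p = 0.960).

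The housekeeping rows did not keep their proportions in SW39. On the positive-control scale TBP, a subunit of the basal transcription machinery, was 2.62 times the controls, PGK1, a glycolytic enzyme, 2.13 times, and TUBB2A, a tubulin, 0.907 times, while B2M stood at 1.03 times and ALAS1 at 1.85 times. ALAS1 thus lay between PGK1 and TBP on the upper side and TUBB2A and B2M on the lower. The reference RNA showed the same disagreement on a larger scale. ALAS1 was 0.746 times the controls after housekeeping scaling but 1.601 times with positive controls only, where PGK1 was at 4.32, TBP at 2.85, TUBB2A at 0.808 and B2M at 0.901 times the controls. A direction for ALAS1 in SW39 or in the reference RNA therefore cannot be given without naming the scaling.

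**Figure D4:**
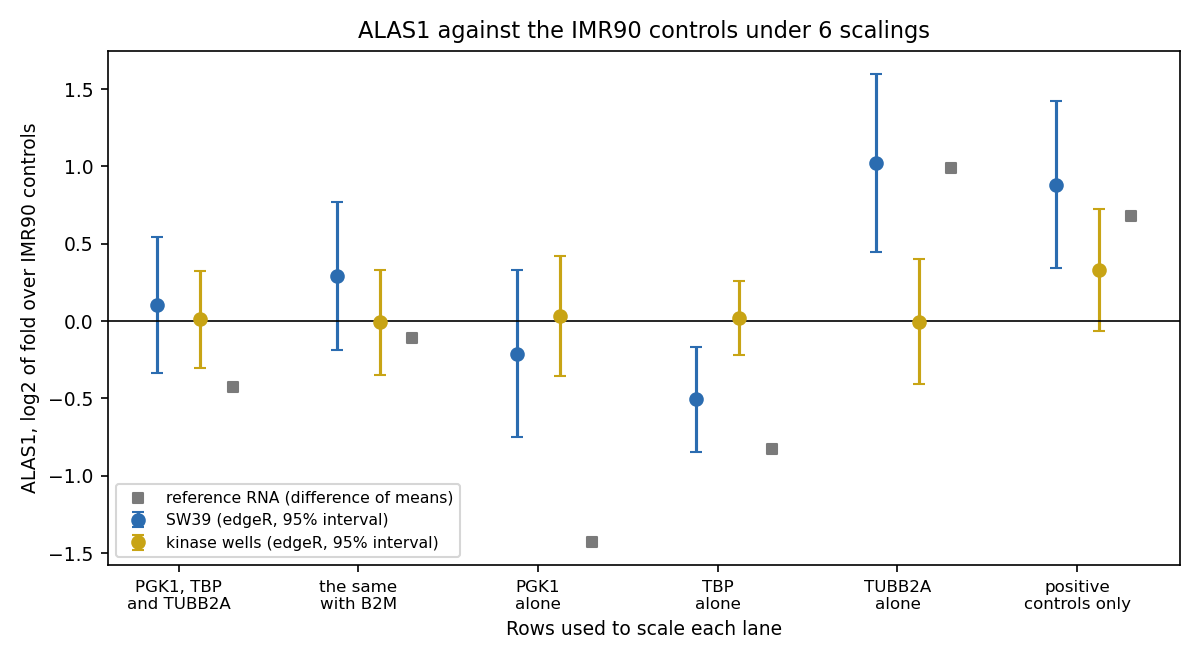
The vertical axis is the log2 of the ALAS1 ratio to the IMR90 controls, and the horizontal axis gives the rows used to scale each lane. Blue and yellow points are edgeR estimates for SW39 and for the kinase wells with 95% intervals, and grey squares are differences of means for the reference RNA; the SW39 estimate runs from -0.51 with TBP alone to 1.02 with TUBB2A alone, while the kinase wells stay between -0.0093 and 0.33.

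Across kinase wells, ALAS1 was set beside the 19 other endogenous and housekeeping rows that exceeded the negative-control level. Rows are named here as in the deposited counts, and some of these names are doubtful. Over all kinase wells and on the log2 scale, the rows most like it were NeoR with a Pearson r of 0.69, TBP with 0.67, MyrFlag with 0.61, UHRF1 with 0.51 and PPM1D with 0.50. The rows least like it were TUBB2A with -0.39, PGK1 with -0.25 and B2M with 0.054. All rows share the lane, its depth and its scaling factor, of which TBP, PGK1 and TUBB2A are themselves parts. Within blocks of 12 the value for NeoR was 0.57, for TBP 0.51 and for PPM1D 0.39, while those for MyrFlag and UHRF1 were 0.32 and 0.28. With positive controls only, TBP and NeoR led with 0.78 each, and PGK1 and TUBB2A had 0.51 and 0.41. TBP was hence the housekeeping row that ALAS1 followed most closely under both scalings, and with TBP alone as reference the SD of ALAS1 over kinase wells was the lowest of the 6 scalings tried, at 0.17.

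The row names are those of the files and some are doubtful. NeoR, MyrFlag, UHRF1 and PPM1D are thus rows by name only, and what each counts was not tested. In kinase wells against controls the row MyrFlag, named for the tag of the kinases, had an edgeR log2 difference of -0.10 (SE 0.14, adjusted p = 0.605). The row NeoR had one of 0.043 (SE 0.19, adjusted p = 0.866). The row ZBTB33, named for a methyl-CpG-binding protein, was the 1 row called in that comparison, higher in kinase wells (adjusted p = 3.5e-06). ALAS1 and the ZBTB33 row had an r of 0.33 over kinase wells, and ALAS1 and the total count of the lane one of 0.24.

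**Figure D5:**
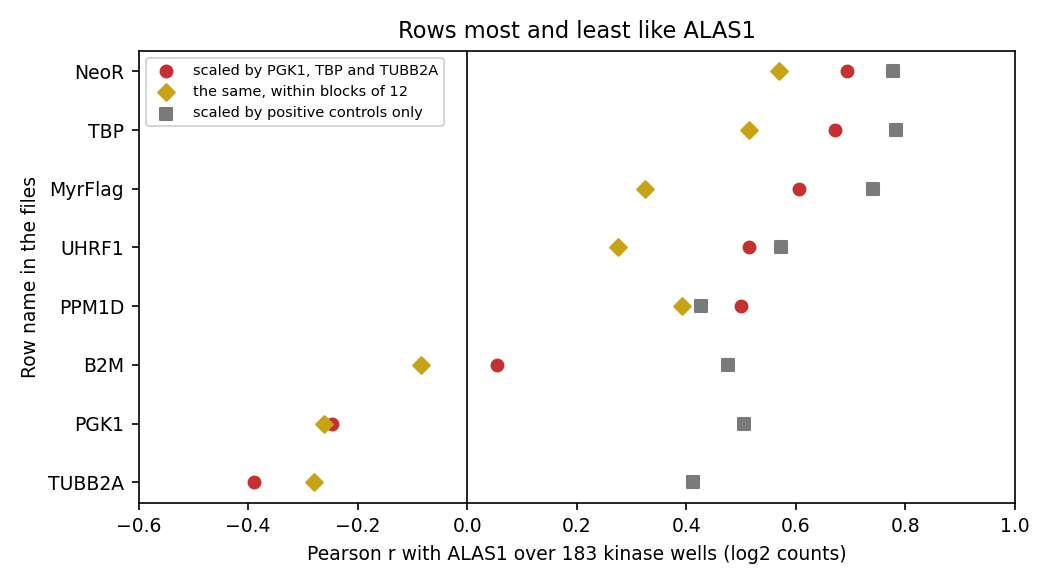
The horizontal axis is Pearson's r with ALAS1 over all kinase wells used, computed on log2 counts, for the 5 rows most like ALAS1 and the 3 least like it. Of these rows, NeoR and TBP have the highest values in all 3 sets of points, and TUBB2A and PGK1 lie below 0 after housekeeping scaling but at 0.41 and 0.51 with positive controls only.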

How the data were processed

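RNA was counted on a Nanostring nCounter system in 197 lanes. The authors deposited raw counts per probe and lane, without normalization, and a table of the series whose signal, as deposited, is the count times 1 factor per lane (relative spread at most 2.1e-15), except in 8 lanes that were not scaled. The members and lists were chosen with earlier results of these data known.

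Counts were scaled by the geometric mean of the 6 positive controls and then of PGK1, TBP and TUBB2A. The positive-control factor cancels in the second step, so the result equals housekeeping scaling alone. A pseudocount of 1 was added before log2, and no background was subtracted. Wells were named by rule: the 5 highest and 5 lowest kinase wells, those beyond a Z-score of 2.5, all wells of the 6 kinase groups and a few relatives of MAP3K8 and AMPK. MAST1, PLK1, PRKCD, AAK1, CAMK2B and PIP5K2A were named after their values were seen. Groups were compared with edgeR 4.0.16 in R 4.3.3, with housekeeping offsets, fitted over all 57 endogenous rows with Benjamini-Hochberg adjustment; limma 3.58.1 and DESeq2 1.42.0 served as alternatives. The code was tested on simulated data. Nothing states that the wells came from separate cultures, so p-values measure the spread between these wells only. Poisson intervals (95%) cover counting error only. Promoter letters are from RefSeq (GRCh38.p14), and ALAS1 was matched to RefSeq by its probe's transcript without version.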

Additional observations from a re-analysis of the deposited data

Results flagged for a closer look

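Of the 3 second lanes left out, 2 held ALAS1 above the higher control well, at 542, and the one named PIK3CG did not, at 493 against 643 in the PIK3CG lane used. The second lane named for the IMR90 controls, which carries the sample number of the other control, gave 547. The second lane named PTK2 gave 684, against 441 in the PTK2 lane that was used, and it carries the sample number of AKT1, where ALAS1 was 601. Over 17 rows with many counts its root mean square log2 difference was 0.13 from the AKT1 lane and 0.58 from the PTK2 lane. For the second lane named PIK3CG it was 0.16 from the PLK1 lane, whose number it carries, and 0.48 from the PIK3CG lane. Which kinase either lane held cannot be told from its label. In the kinase groups of 4 to 6 wells and in the 6 reference lanes, no ALAS1 value stood apart from the others by Dixon's test.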

How the results depend on the processing

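No call was made for ALAS1 in kinase wells against controls or in the 6 kinase groups, and none was made under any alternative. The sign of these small log2 differences was not stable. For kinase wells against controls it was -0.0093 with B2M added, -0.0042 with TUBB2A alone, -0.014 on the authors' table, -0.40 with DESeq2, -0.21 with TMM factors and -0.070 with blocks as a term, and it lay between -0.11 and 0.14 when either control was left out. For SW39 it was 0.88 with positive controls only and 1.02 with TUBB2A alone, both called, and -0.21 with PGK1 alone and -0.51 with TBP alone, the latter called. The SW39 fits that follow were scaled by PGK1, TBP and TUBB2A together. Leaving out a well gave a difference of -0.016 to 0.23. With only the 4 wells it was 0.10, and with the replicate number as a block 0.11 (SE 0.090, adjusted p = 0.685), with no other call changed for ALAS1; deviations of like-numbered wells had an r of 0.33 over 17 rows, but 2 pairs do not settle whether the numbers pair the wells.

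In the kinase groups the sign turned for AMPK on the authors' table (0.012), for PKA with DESeq2 (-0.017), for AKT with positive controls only (-0.0027), PGK1 alone (-0.015) and TUBB2A alone (-0.0011), for sugar kinases with blocks (0.017), and for nucleotide kinases with positive controls only (0.027), the authors' table (0.0010) and blocks (0.0024). Leaving out each well gave -0.099 to 0.043 for AMPK, -0.12 to 0.22 for PKA, -0.046 to 0.062 for AKT, 0.051 to 0.18 for PI3K, -0.078 to -0.0025 for sugar and -0.052 to -0.0016 for nucleotide kinases. Under the other alternatives the differences ran from -0.23 for AMPK with DESeq2 to 0.19 for PI3K with PGK1 alone. For AMPK the DESeq2 Wald test gave SE 0.12, unadjusted p = 0.057 and adjusted p = 0.979. In edgeR with TMM factors PI3K had 0.13 (SE 0.073, unadjusted p = 0.067, adjusted p = 0.993).

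The wells above a Z-score of 2.5 numbered 1 with PGK1 alone or TUBB2A alone, 0 on the authors' table or with HK1 in the mean and SD, and 4 with blocks centred or with the median absolute deviation. Those below numbered 3 with B2M added, 0 with PGK1 alone, TBP alone or HK1 included, and 2 with blocks centred. With positive controls only the counts were the same, 2 and 1, but the wells were AAK1, PRKCD and CAMK2B. On the authors' table the 1 well below was PIP5K2A, whose raw ALAS1 count of 97 was the lowest of the kinase wells. The HK1 lane held 1 ALAS1 count, which its scaling factor raised to 2151. With HK1 in the mean and SD, MAP3K8 stood at 2.33, FASTK at 2.23 and FGFR1 at -2.15. MAP3K8 passed in 10 of 14 alternatives, FASTK and FGFR1 in 9. Leaving out FASTK, a setting added after the data had been seen, gave 3 and 1. The cause was not tested beyond these values.

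The SD over kinase wells was 0.27 with positive controls only, 0.24 with B2M, 0.28 with PGK1, 0.17 with TBP, 0.29 with TUBB2A and 0.28 on the authors' table. Over reference lanes it was 0.13, 0.14 with PGK1 alone and 0.45 on the table, where these lanes are unscaled, and 0.054 to 0.10 when a lane was left out, the lowest without the third. The r of NeoR was 0.78 with positive controls only and 0.57 within blocks, a setting added after the data had been seen; B2M turned to -0.085 within blocks, and PGK1 and TUBB2A to 0.51 and 0.41 with positive controls only. Depth did not limit detection of ALAS1, but with 1 well per kinase a change in a kinase cannot be separated from well error.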
